A study of Mus musculus with 2 samples.

Results

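The ATP-sensitive potassium channel of MIN6 cells was represented by transcripts of 1 pore gene, Kcnj11, and 1 regulatory gene, Abcc8. The other 2 subunit genes, Kcnj8 and Abcc9, were listed at 0 at both glucose concentrations. The genes examined were the rows whose symbol was Kcnj11, Abcc8, Kcnj8 or Abcc9, which are 4 of the 55466 genes in each table. All 4 were found in both tables, and 2 of them had a mean of at least 1 FPKM (fragment counts divided by gene length and library size) over the libraries. MIN6 is a mouse insulinoma line that secretes insulin and stands in for beta cells of the pancreas. Cells were first equilibrated for 0.5 h at 2.8 mM glucose in a bicarbonate-buffered salt solution. They were then kept for 1 h in the same buffer at 25 mM glucose, labelled hyperglycemic, or at 2.8 mM glucose, labelled hypoglycemic. Total RNA of 1 sample at 25 mM and 1 sample at 2.8 mM was sequenced, and the labels do not say whether a sample was 1 culture or a pool. There is therefore no replicate error or test, and each difference is one between 2 libraries.

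The ATP-sensitive potassium channel couples metabolism to membrane voltage. An inward rectifier of the Kir6 family forms the pore, and a sulfonylurea receptor, a member of the ABC transporter superfamily, surrounds it in equal number. ATP binds the pore subunit and closes the channel, whereas magnesium-bound nucleotides act on the sulfonylurea receptor and open it. In beta cells the channel is built from Kir6.2 (Kcnj11) and SUR1 (Abcc8), and its closure at high glucose depolarizes the membrane, opens calcium channels and triggers insulin release. Kir6.1 (Kcnj8) and SUR2 (Abcc9) form the channels of vascular smooth muscle, and SUR2 pairs with Kir6.2 in skeletal muscle and in the heart ventricle.

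The subunit genes lie as neighbouring pairs on 2 chromosomes. Kcnj11 (ENSMUSG00000096146) spans 46093953 to 46100764 on chromosome 7 of GRCm38 and Abcc8 (ENSMUSG00000040136) spans 46104523 to 46180033, both on the minus strand, with 3758 bp between them. Kcnj8 (ENSMUSG00000030247) spans 142564837 to 142571614 on chromosome 6 and Abcc9 (ENSMUSG00000030249) spans 142587862 to 142702315, again both on the minus strand, with 16247 bp between them. In each pair the pore gene lies downstream of the receptor gene.

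Promoter sequences are shown for the pair that was listed at 0. Kcnj8 and Abcc9 matched the RefSeq promoter table for GRCm38.p6, and Kcnj11 and Abcc8 had no entry in it. The stretches hold 250 bases before and 10 bases after the annotated start, read 5′ to 3′ on the minus strand. They are chr6:142571605-142571864 for Kcnj8 and chr6:142702265-142702524 for Abcc9. Capitals mark matches to the motifs searched on both strands.
Kcnj8: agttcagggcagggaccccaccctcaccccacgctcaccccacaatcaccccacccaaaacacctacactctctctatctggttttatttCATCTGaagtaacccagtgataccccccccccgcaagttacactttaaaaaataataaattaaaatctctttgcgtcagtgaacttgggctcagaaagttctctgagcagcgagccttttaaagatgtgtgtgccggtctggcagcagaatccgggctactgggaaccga
Abcc9: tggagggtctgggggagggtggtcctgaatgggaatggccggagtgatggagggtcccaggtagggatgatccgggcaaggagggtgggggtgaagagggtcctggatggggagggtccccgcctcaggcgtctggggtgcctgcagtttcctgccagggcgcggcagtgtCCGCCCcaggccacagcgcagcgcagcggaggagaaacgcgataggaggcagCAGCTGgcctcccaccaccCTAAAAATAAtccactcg

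The capitals in Kcnj8 are 1 E-box (CANNTG), the core bound by basic helix-loop-helix factors. Abcc9 held 1 E-box, 1 GC box (GGGCGG, here on the opposite strand), which is bound by Sp factors, and, across the start, 1 match to the consensus of MEF2, a family of muscle and neuronal factors. The 3 matches in Abcc9 did not overlap. Among all 32851 promoter windows of the table, an E-box occurred in 72.3%, a GC box in 35.7% and a MEF2 match in 3.19%. Neither window held the forkhead motif TGTTTNC, present in 20.5% of windows, the sequence TATAAA, present in 13.6%, or a CArG box, the site of serum response factor, present in 1.63%. The whole 300-base windows were 53.3% G and C for Kcnj8 and 65.7% for Abcc9, against a median of 52.7% over the table. A match is a string of letters and was not tested as a binding site.

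Kcnj11, the pore gene of the beta-cell channel, was at 17.9 FPKM at 25 mM against 17.5 FPKM at 2.8 mM. The libraries were close for this gene, with the 25 mM value 2.71% above the 2.8 mM value. Its log2 change was 0.04, where a log2 change is log2((FPKM at 25 mM + 1)/(FPKM at 2.8 mM + 1)), a scale that understates the change of low genes. Kcnj11 stood 5237th of 14197 protein-coding genes above 0 at 25 mM, and 5387th of 14413 at 2.8 mM.

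Abcc8, the receptor that binds sulfonylurea drugs and senses nucleotides, was at 66.9 FPKM at 25 mM against 73.7 FPKM at 2.8 mM. The 25 mM library was the lower one, at 0.907 times the level at 2.8 mM, and the log2 change was -0.14. In a bulk sample, fewer cells with a transcript and less of it per cell cannot be told apart. Abcc8 stood 1624th of the protein-coding genes above 0 at 25 mM and 1473rd at 2.8 mM. It was thus among the top 11.4% at 25 mM and the top 10.2% at 2.8 mM.

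Kcnj8 and Abcc9, the pore and receptor genes of the vascular channel, were listed at 0 FPKM in both libraries. An exact 0 in FPKM files can also be a failed estimate, which was not tested here. The steps between low FPKM values corresponded to 16740000 fragments at 25 mM and 19640000 at 2.8 mM. With these totals, 3 fragments on the longest transcript of Kcnj8 would be 0.0786 FPKM at 25 mM against 0.0676 FPKM at 2.8 mM. For the longer Abcc9 they would be 0.0248 FPKM at 25 mM against 0.0212 FPKM at 2.8 mM. For the longest transcripts these are approximate 95% upper limits for a count of 0, and they cover counting error only. Shorter transcripts would have higher limits. Annotated transcripts run from 2269 to 2548 nt for Kcnj8 and from 1458 to 7499 nt for Abcc9. Transcripts below such limits could have been missed at this depth. Being at 0 in both libraries was common, since 7029 protein-coding genes (32.0%) were.

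**Figure D1:**
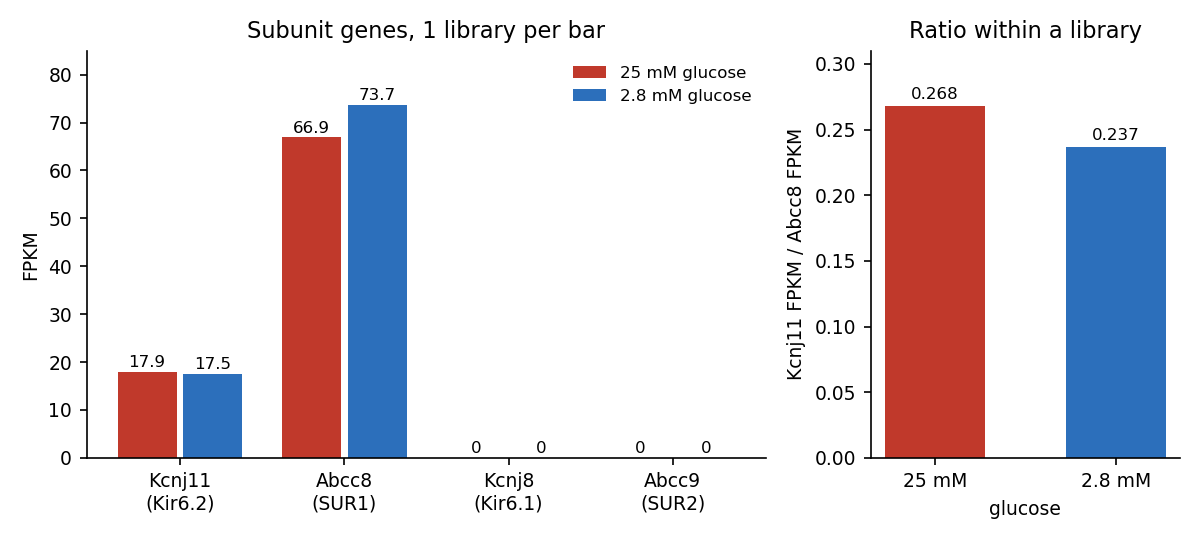
FPKM of the 4 subunit genes at 25 mM and 2.8 mM glucose (left panel) and Kcnj11 FPKM divided by Abcc8 FPKM within each library (right panel), with 1 library per bar and no error bars. Kcnj11 and Abcc8 carry all of the signal, Abcc8 is the higher of them at both concentrations, and Kcnj8 and Abcc9 are listed at 0.

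The order of levels, Abcc8 above Kcnj11 above the genes at 0, was the same in both libraries. Because FPKM is scaled to length, the subunits could be set side by side within a library. Kcnj11 had 0.268 times the FPKM of Abcc8 at 25 mM and 0.237 times at 2.8 mM, so that the receptor transcript was 3.73 times the pore transcript at 25 mM and 4.22 times at 2.8 mM. Kcnj11 supplied 21.1% of the summed FPKM of the 4 genes at 25 mM and 19.1% at 2.8 mM. Abcc8 supplied 78.9% at 25 mM and 80.9% at 2.8 mM. The same ratio of Kir6.1 to SUR2, or of either pore or receptor gene across the pairs, could not be formed from values listed at 0. The summed FPKM of the 4 genes was 84.8 at 25 mM and 91.2 at 2.8 mM. These are transcript levels, and the number of channel proteins was not measured.

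The ratio of pore to receptor transcript rests on how reads were shared among isoforms. Kcnj11 has 5 annotated transcripts of 434 to 3142 nt and Abcc8 has 8 of 431 to 4877 nt, so a different isoform mix would move the length that divides each count. None of the 31-mers of the longest transcript of Kcnj11, Abcc8 or Kcnj8 occurred in a transcript of another gene, on either strand. In Abcc9 the share was 3.59%.

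The difference between the libraries in the Kcnj11 to Abcc8 ratio was 0.18 on the log2 scale. If every fragment came from the longest transcript, Kcnj11 had about 862 fragments at 25 mM and 978 at 2.8 mM, and Abcc8 about 5160 at 25 mM and 6643 at 2.8 mM. On that assumption, which gives the most fragments and so the narrowest interval, the 95% interval of the log2 ratio of FPKM between libraries was -0.10 to 0.17 for Kcnj11 and -0.19 to -0.09 for Abcc8 (exact Clopper-Pearson). For the difference in the ratio the interval was 0.04 to 0.32, combining the widths of both. These intervals cover counting error in these libraries only and not the spread between cultures, which was not measured. The intervals of the single genes also leave out the scaling of the libraries, which does not affect the ratio. With both libraries rescaled to the same FPKM sum, Abcc8 was at -0.07, above its interval.

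Neither Kcnj11 nor Abcc8 differed by 1.5-fold between the libraries. Over all 12694 genes with a mean of at least 1 FPKM, 4.45% were at least 1.5-fold apart, 1.95% higher and 2.51% lower at 25 mM. For the 10963 protein-coding genes of this set the share was 2.25%. A count of 0 among 2 genes is near either background. The median log2 change of all 12694 genes was -0.02. Among 2404 protein-coding genes within 2-fold of the mean level of Abcc8, the middle 50% of log2 changes ran from -0.08 to 0.07, and 12.6% were as low as Abcc8 or lower. Among 4326 such genes around Kcnj11 the middle 50% ran from -0.12 to 0.07, and 65.8% lay below Kcnj11. Abcc8 was thus towards the low side of genes of its level and Kcnj11 was inside the middle range. With both libraries rescaled to the same FPKM sum, which shifts every log2 ratio up by 0.07, the log2 change of Abcc8 was -0.07.

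**Figure D2:**
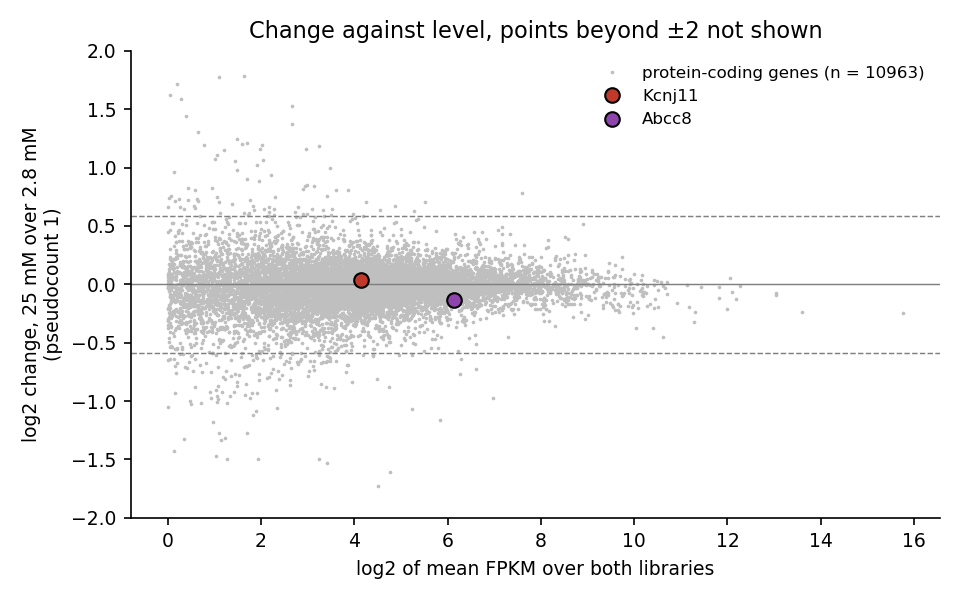
Log2 change between the libraries (25 mM over 2.8 mM, pseudocount 1) against the log2 of the mean FPKM for 10963 protein-coding genes with a mean of at least 1 FPKM (grey points), with Kcnj11 and Abcc8 as large points and dashed lines at 1.5-fold. Kcnj11 at 0.04 and Abcc8 at -0.14 both lie inside the dashed lines.

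Within its family, Kcnj11 was the inward rectifier gene that stood out. Of 15 genes named Kcnj, it held 95.2% of the summed FPKM at 25 mM and 93.2% at 2.8 mM. The next by mean level was Kcnj14, at 0.529 FPKM at 25 mM against 0.489 FPKM at 2.8 mM, so that Kcnj11 was 33.9 times as high as Kcnj14 at 25 mM and 35.7 times at 2.8 mM. Kcnj6 and Kcnj9, which encode G protein-gated rectifiers, followed at 0.142 and 0.240 FPKM at 25 mM against 0.509 and 0.206 FPKM at 2.8 mM, where Kcnj6 was above Kcnj14. Kcnj4, a strong inward rectifier gene, was listed at 0 at 25 mM and at 0.0546 FPKM at 2.8 mM. Kcnj8 was 1 of 9 family genes listed at 0 in both libraries. Kcnj1, the renal rectifier gene, was another of them, and in the authors' deposited annotation it carries, with Kcnj11 and Kcnj8, the function of an ATP-activated inward rectifier.

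Abcc8 was the most abundant of 10 Abcc genes, with less distance to the next. It held 58.2% of the family's FPKM at 25 mM and 58.7% at 2.8 mM, and was 1.998 times Abcc5 at 25 mM and 2.09 times at 2.8 mM. Abcc5, an exporter of cyclic nucleotides, was at 33.5 FPKM at 25 mM against 35.3 FPKM at 2.8 mM. The multidrug resistance protein gene Abcc1 was at 7.52 FPKM at 25 mM against 10.0 FPKM at 2.8 mM. Abcc4, another exporter of cyclic nucleotides, was at 5.23 FPKM at 25 mM against 4.57 FPKM at 2.8 mM, and Abcc10 at 1.78 FPKM at 25 mM against 1.62 FPKM at 2.8 mM. Of the 5 Abcc genes with a mean of at least 1 FPKM, 0 were 1.5-fold apart, near the background of 4.45% of all genes and 2.25% of protein-coding genes. Abcc9 was the 1 family gene listed at 0 in both libraries.

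**Figure D3:**
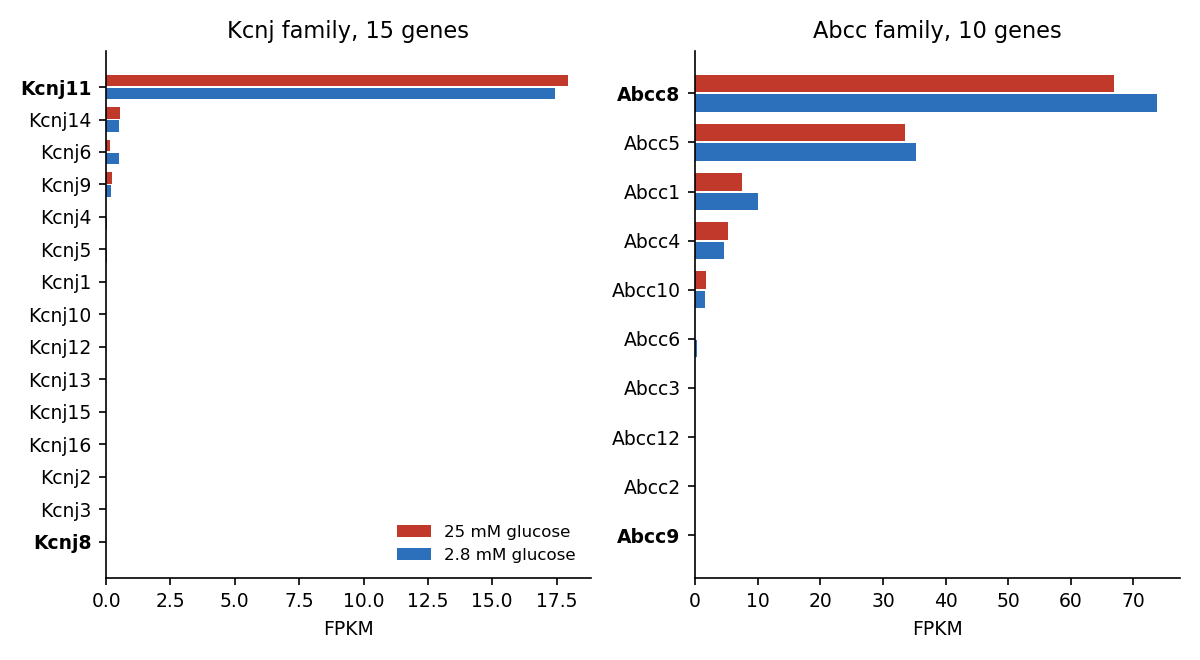
FPKM of all 15 Kcnj genes (left panel) and all 10 Abcc genes (right panel) at 25 mM and 2.8 mM glucose, ordered by mean level, with the 4 subunit genes in bold and 1 library per bar. Kcnj11 is above 17 FPKM while each other Kcnj gene is below 1 FPKM, and Abcc8 is followed by Abcc5 at 33.5 FPKM at 25 mM against 35.3 FPKM at 2.8 mM.

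Among the protein-coding genes whose symbol starts with Kcn, a set of 94 looked at after the values were seen, Kcnj11 was near the level of Kcnk16, the gene of the beta-cell potassium channel TALK-1, at 17.1 FPKM at 25 mM against 16.9 FPKM at 2.8 mM. Of the 21 Kcn genes with a mean of at least 1 FPKM, 0 were 1.5-fold apart, near the background of 2.25% of protein-coding genes.

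The genes around the 2 pairs covered a range of levels. Downstream of Kcnj11 lay Nomo1, a gene of an endoplasmic reticulum membrane complex, at 56.1 FPKM at 25 mM against 54.2 FPKM at 2.8 mM, with the processed pseudogene Gm18706 between them at 0.598 FPKM at 25 mM against 0.523 FPKM at 2.8 mM. Upstream of Abcc8 lay Ush1c, which encodes the scaffold protein harmonin, at 6.67 FPKM at 25 mM against 6.87 FPKM at 2.8 mM. Gm45486, an antisense gene inside Abcc8, was at 0.0710 FPKM at 25 mM against 0.620 FPKM at 2.8 mM. Both values lie below the 1 FPKM that the mean of a gene had to reach here, and their difference was not tested. The longest Abcc8 transcript shared no 31-mer with a transcript of Gm45486 on either strand. The shorter transcripts and the introns of Abcc8 were not compared. Whether the counting used strand is not stated in the sources used here. Reads of those parts and of Gm45486 may therefore not have been told apart. Gm45487, a gene model inside Abcc8 on the same strand, was at 1.94 FPKM at 25 mM against 1.97 FPKM at 2.8 mM. The nearest protein-coding genes on both sides of the pair listed at 0 were expressed. Ldhb, for the lactate dehydrogenase B subunit, flanked Kcnj8 at 106 FPKM at 25 mM against 103 FPKM at 2.8 mM. Gys2, the liver glycogen synthase gene beyond Ldhb, was listed at 0 in both libraries. Cmas, for the enzyme that activates sialic acid, flanked Abcc9 at 55.9 FPKM at 25 mM against 51.3 FPKM at 2.8 mM. The antisense gene inside Abcc9, 5330439B14Rik, was listed at 0 in both libraries.

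**Figure D4:**
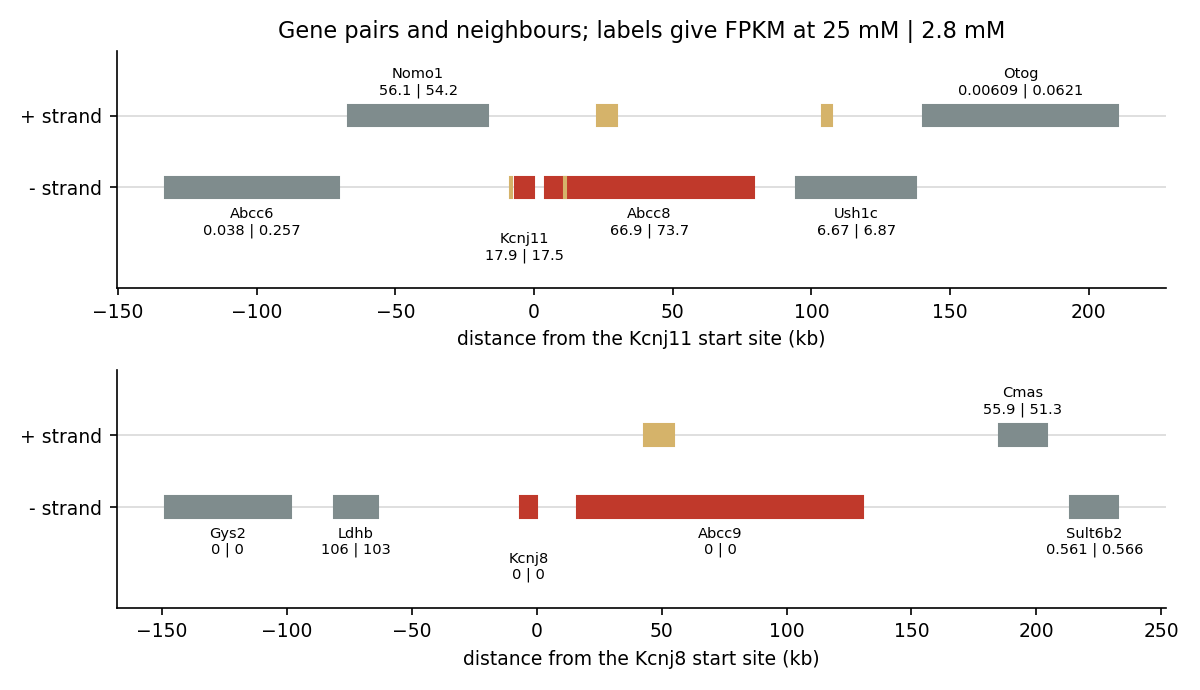
Map to scale of the Kcnj11 and Abcc8 pair (upper panel) and the Kcnj8 and Abcc9 pair (lower panel), with distance from the annotated 5′ end of the pore gene in kilobases on the x axis and the 2 strands as rows. Red boxes are subunit genes, grey boxes the nearest protein-coding genes and ochre boxes non-coding gene models, and labels give FPKM at 25 mM and then at 2.8 mM. Both pairs have a flanking gene above 50 FPKM, whereas the pairs themselves differ.

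Of 10661 named protein-coding genes with a mean of at least 1 FPKM, those nearest to Kcnj11 in log2(FPKM + 1) over the 2 libraries were Hpse, Usp32 and Iqgap3, at distances of 0.010 to 0.015. Those nearest to Abcc8 were Slc20a1, Tfdp1 and Flcn, at distances of 0.016 to 0.019. With 2 libraries this likeness is one of level and of 1 difference.

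The label of a beta-cell line was checked against marker genes. Of 10 beta-cell markers, 8 had a mean of at least 1 FPKM, with Ins2 at 50846 FPKM at 25 mM against 60328 FPKM at 2.8 mM. The exceptions were Slc2a2 and Ucn3, both below 1 FPKM in each library. Of 6 markers of other endocrine cells, the glucagon gene Gcg was at 2764 FPKM at 25 mM against 2804 FPKM at 2.8 mM, and 4 were at 0 in both libraries. Kcnj8 and Abcc9 are transcribed in smooth muscle and pericytes, and the 10 markers of those cells summed to 9.80 FPKM at 25 mM against 9.55 FPKM at 2.8 mM. Mcam accounted for 7.64 FPKM of that sum at 25 mM and 7.06 FPKM at 2.8 mM. Tagln was at 1.03 FPKM at 25 mM against 1.07 FPKM at 2.8 mM. These were the 2 of the 10 markers with a mean of at least 1 FPKM. Only 1 of the 10, the smooth muscle actin gene Acta2, was at 0 in both libraries. The 5 endothelial markers summed to 1.74 FPKM at 25 mM against 1.46 FPKM at 2.8 mM, with 3 at 0 in both. The 3 leukocyte markers summed to 3.98 FPKM at 25 mM against 5.20 FPKM at 2.8 mM, all of it from Cd68.

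Of 15 listed genes that take part in feeding the channel with nucleotides, 13 had a mean of at least 1 FPKM. Of these 0 were 1.5-fold apart, near the background of 2.25% of protein-coding genes. Their median log2 change was 0.04. The mitochondrial ADP/ATP carrier genes Slc25a5 and Slc25a4 were at 613 and 409 FPKM at 25 mM against 590 and 388 FPKM at 2.8 mM. Vdac2, an outer membrane anion channel gene, was at 239 FPKM at 25 mM against 222 FPKM at 2.8 mM. Vdac1, of the same family, was highest in log2 change at 0.22, with 201 FPKM at 25 mM against 173 FPKM at 2.8 mM. Ak3, a mitochondrial adenylate kinase gene, was lowest at -0.16, with 14.0 FPKM at 25 mM against 15.8 FPKM at 2.8 mM.

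Among 13 channels that act with or after the ATP-sensitive channel, 11 had a mean of at least 1 FPKM, with 1 at least 1.5-fold higher and 0 at least 1.5-fold lower at 25 mM, beside 2.25% of protein-coding genes past the fold in either direction. The gene past the fold was Cacna1d, for an L-type calcium channel pore, at 10.2 FPKM at 25 mM against 5.26 FPKM at 2.8 mM, a log2 change of 0.84. Cacnb2, for a calcium channel beta subunit, was lowest at -0.45, with 8.66 FPKM at 25 mM against 12.2 FPKM at 2.8 mM. The median log2 change of the list was -0.06. Kcnh2, the gene of the rapid delayed rectifier pore, was at 15.4 FPKM at 25 mM against 14.9 FPKM at 2.8 mM. Cacnb3, for another beta subunit, was at 14.2 FPKM at 25 mM against 13.5 FPKM at 2.8 mM.

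Of 22 listed genes of proteins that bind, modify, fold or carry the channel, 21 had a mean of at least 1 FPKM. Of these 0 were 1.5-fold apart, near the background of 2.25% of protein-coding genes, and the median log2 change was 0.04. The chaperone genes Hsp90ab1 and Hspa8 were at 1045 and 811 FPKM at 25 mM against 986 and 722 FPKM at 2.8 mM, and the 14-3-3 gene Ywhae was at 962 FPKM at 25 mM against 937 FPKM at 2.8 mM. Vcp, for an ATPase that extracts proteins from the endoplasmic reticulum for degradation, was highest in log2 change at 0.35, with 97.6 FPKM at 25 mM against 76.4 FPKM at 2.8 mM. Stx1a, for the SNARE protein syntaxin-1A, was lowest at -0.13. Rapgef4, for the cAMP sensor Epac2 that binds SUR1, and Ank2, for an ankyrin that binds Kir6.2, were picked after their values were seen. Rapgef4 was at 24.5 FPKM at 25 mM against 26.0 FPKM at 2.8 mM, and Ank2 at 41.2 FPKM at 25 mM against 40.0 FPKM at 2.8 mM.

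Of 12 beta-cell transcription factor genes, 11 had a mean of at least 1 FPKM and the median log2 change was 0.09. With the pseudocount of 1, 0 of them were 1.5-fold apart, near the background of 2.25% of protein-coding genes. The most abundant were Pdx1, Mafa and Neurod1. Neurod1, for a basic helix-loop-helix factor, was at 39.5 FPKM at 25 mM against 41.1 FPKM at 2.8 mM. Foxa1 was highest at a log2 change of 0.29, with 5.75 FPKM at 25 mM against 4.50 FPKM at 2.8 mM, and Hnf4a was lowest at -0.50, with 1.08 FPKM at 25 mM against 1.95 FPKM at 2.8 mM. Without the pseudocount Hnf4a would be more than 1.5-fold lower at 25 mM, so the count of 0 depends on it. Foxa2, which is known in mouse islets to act on both Kcnj11 and Abcc8 and was picked after its values were seen, was at 12.9 FPKM at 25 mM against 14.6 FPKM at 2.8 mM.

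**Figure D5:**
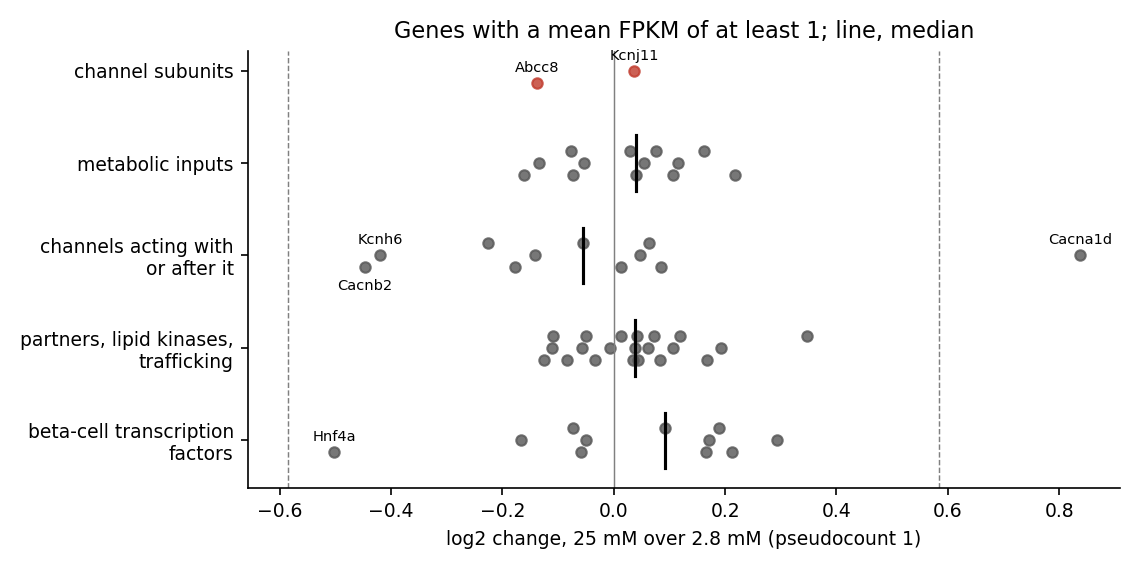
Log2 change (25 mM over 2.8 mM, pseudocount 1) of the 2 subunit genes and of the members of 4 lists with a mean of at least 1 FPKM, 1 point per gene, with a black line at each list's median and dashed lines at 1.5-fold. Kcnj11 and Abcc8 lie among the other genes, and Cacna1d at 0.84 is the 1 point outside the dashed lines.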

How the data were processed

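RNA from MIN6 cells was sequenced at 25 mM and 2.8 mM glucose, 1 library each. The deposited values are FPKM, per the file headers. Per the submitters' processing notes, HISAT2, Cuffdiff and GRCm38 were used, with no version or setting, and neither library kit nor strand is given in the sources used here. In each file 1 row was empty and was not used. Groups came from the treatment label. The log2 scale had a pseudocount of 1, and genes needed a mean of at least 1 FPKM. No test was possible. Results for some single genes of the lists are not reported here. Genes named were the 4 subunits, the extremes, the 3 most abundant genes and those past 1.5-fold of each list, the 5 most abundant of each family, neighbours and nearest genes, beside those said to be picked after their values were seen. The members and lists were chosen with earlier results of these data known.

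Gene models came from GENCODE release 21 for mouse (GRCm38). Fragment totals were fitted to the steps of low FPKM values of single-transcript genes of at least 800 nt, where 94.3% of 2117 values at 25 mM and 94.9% of 2335 at 2.8 mM were within 0.1 of a whole fragment. The fitted fragment lengths were 270 nt at 25 mM and 290 nt at 2.8 mM. The motifs were chosen after the promoters were seen. The calculation of the log2 change and the 1.5-fold call were tested on simulated data. The fit of fragment totals, the intervals, the comparison of transcript sequences and the motif search were not tested in this way. Alternatives were other pseudocounts, filters, folds, scalings and summed rows. Tools were Python 3.11.15 with SciPy 1.17.1, pandas 2.3.3, NumPy 2.4.6 and, for plots, matplotlib 3.10.9.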

Additional observations from a re-analysis of the deposited data

How the results depend on the processing

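With 1 library per concentration, no value could be checked against replicates. The log2 change of Kcnj11 stayed between 0.03 and 0.10, and that of Abcc8 between -0.14 and -0.07, under 8 alternatives each, of which the comparison with genes of similar level was chosen after the data were seen. The largest move was that of Abcc8 to -0.071 with both libraries rescaled to the same FPKM sum, a shift common to all genes. The ratio of Kcnj11 to Abcc8 was 0.268 to 0.279 at 25 mM and 0.237 to 0.247 at 2.8 mM under the pseudocounts and with rows of 1 symbol summed. Kcnj8 and Abcc9 gave no change or ratio. The background of 247 genes 1.5-fold higher at 25 mM and 318 genes 1.5-fold lower became 93 higher and 91 lower under a pseudocount of 5. It became 442 higher and 550 lower without a filter, 76 higher and 129 lower where the mean FPKM had to reach 5, and 113 higher and 106 lower at 2-fold. With a pseudocount of 0.1 it was 364 higher and 524 lower, and in protein-coding genes, a choice made after seeing the data, 94 higher and 153 lower. These settings change by construction which genes can pass. With both libraries rescaled to the same FPKM sum it was 300 higher and 262 lower, so the direction with more genes turned from lower to higher at 25 mM. Depth limits Kcnj8 and Abcc9, for which a few fragments could have been missed. No paired analysis was possible because each concentration had a single library.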
